A study of Mus musculus with 24 samples.

Results

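The 6 genes of mucosal B cells and plasma cells described here in the colon and liver of the same mice are Igj, Pigr, Tnfrsf17, Cd79b, Cd79a and Ms4a1. They were taken by name, as every probe whose gene name on the array equals one of these 6, which gave 8 probes of 41174 and 6 of 27962 gene names. Igj and Ms4a1 had 2 probes each, and the one with the higher mean intensity over all arrays was the main probe. The name Igj is that of the array, and the current reference name is Jchain. The samples were female C57BL/6 offspring at 12 weeks of age, all born to and suckled by mothers fed HF-low, a diet rich in fat and poor in selenium and folate, begun 7 days before mating. From weaning at about 28 days, 6 mice stayed on that diet (HF-low-low) and 6 were moved to one as rich in fat but with enough of both nutrients (HF-low-suf), so that no mouse was without the high-fat diet or the low maternal diet. Whole colon and whole liver of each of the 12 mice were measured on 24 two-colour Agilent arrays, 6 for each tissue and diet, with the mouse RNA in Cy3 and a reference pool in Cy5, made from colon and liver RNA of all mice by the labels and from intestinal and liver RNA by the paper. Every value below is a log2 ratio of mouse sample to this pool, so that 0 is the level of the pool and a difference of 1 is a doubling. Igj was below the pool on 10 of 12 colons and 12 of 12 livers, so the pool did not lie between the tissues for this gene, and only differences between samples are interpreted. Because whole tissue was extracted, fewer cells of a type and less RNA per cell cannot be told apart in any value given here.

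Plasma cells under the gut epithelium secrete dimeric IgA, in which the J chain that Igj encodes links the antibody units through their heavy chains. The polymeric immunoglobulin receptor, encoded by Pigr, is made by epithelial cells, binds the J chain-containing antibody on their inner face and carries it across into the lumen. B cells that have not become plasma cells carry an antigen receptor that signals through Cd79a and Cd79b, and they bear Ms4a1 (CD20) on their surface. On becoming plasma cells they lose Ms4a1 and gain Tnfrsf17 (BCMA), a receptor for survival factors.

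Whether the mRNA of these genes differed between colon and liver was tested over all 24 arrays with limma. A probe was called where the Benjamini-Hochberg adjusted P was under 0.05 and the log2 difference at least 1, and 12.7% of all probes passed both. Of the 6 members, 1 was called, Igj, which was higher in the colon, as were 6.7% of all probes, while 5.96% of all probes were higher in the liver. Pigr was also higher in the colon, by less than 1 on the log2 scale. Cd79b and Ms4a1 were lower in the colon than in the liver, again by less than 1. Cd79a and Tnfrsf17, which the arrays hardly measured, did not pass. With the adjusted P alone, a rule chosen after the values were seen, 4 of 6 members passed, against 35.9% of all probes. Igj and Pigr passed as higher in the colon (17.8% of all probes) and Cd79b and Ms4a1 as higher in the liver (18.1%). The median difference of the 6 members was 0.14, with 3 of 6 above 0, beside a median of -0.02 over all probes. Igj, Pigr and Cd79b were well above background on at least 6 of the 12 colons, as were 43.9% of all probes, and these 3 and Ms4a1 on at least 6 of the 12 livers, as were 36.9%.

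**Figure D1:**
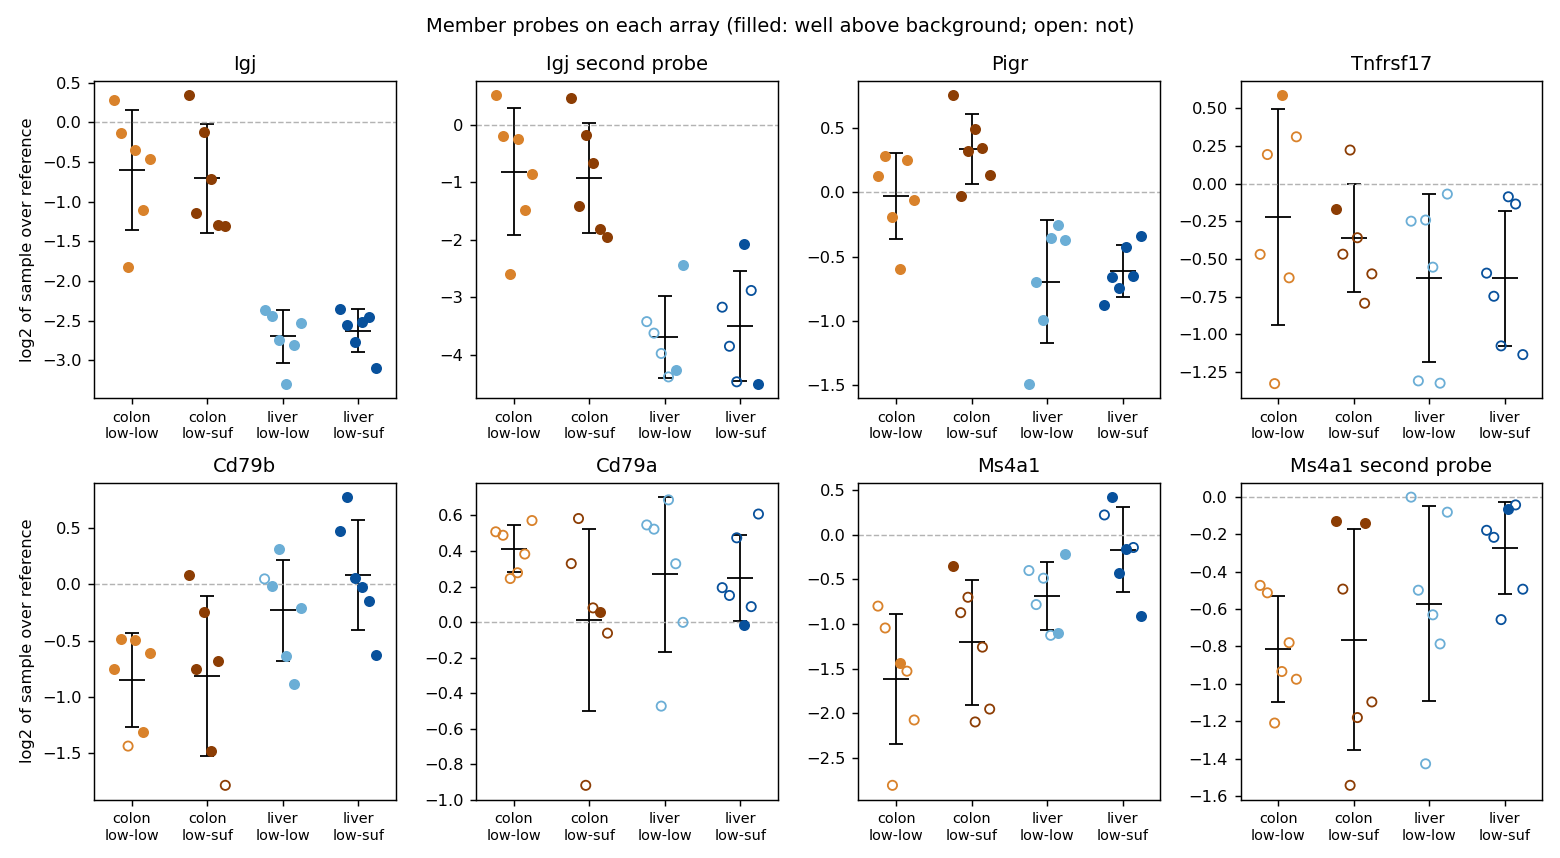
Log2 ratio of mouse sample to reference pool (vertical axis, with its own range in each panel) for the 8 member probes on the 24 arrays, by tissue and diet. Points are single mice, filled where the probe was well above background and open where it was not, and crosses with bars are means and SD of 6; the main Igj probe separates colon from liver on every array, while Cd79a and Tnfrsf17 are almost wholly open points.

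Igj had the largest tissue difference of the 6 members. Both of its probes lie on the minus strand of mouse chromosome 5 in build mm7, the main probe at chr5:88461353-88461412 and the second at chr5:88461523-88461582. The first 30 bases of each 60-base probe are shown because the probes are distinct stretches of one transcript and gave different folds.
Igj main probe: ctgtactagtctttctcttaacctctcact
Igj second probe: gtaaatcctcatgtctgctcaaggagatat
In colons on HF-low-low, the main probe ranged from -1.83 to 0.28, with a median of -0.40. In colons on HF-low-suf it ranged from -1.31 to 0.34, with a median of -0.93. Livers lay far lower, from -3.29 to -2.37 (median -2.64) on HF-low-low and from -3.10 to -2.35 (median -2.54) on HF-low-suf. The lowest colon, HF-low-low replicate 3, was still above the highest liver, so the tissues did not overlap. The probe was well above background in Cy3 on all 24 arrays, so that Igj mRNA was measured in liver as well as in colon.

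Igj was higher in the colon by 2.01 on the log2 scale (SE 0.21, 95% interval 1.58 to 2.44), a 4.02-fold difference that limma gave an adjusted P of 7.53e-09. It was higher in the colon in 12 of 12 mice, with differences within a mouse from 0.92 to 2.95. An exact permutation of signs over the mice, two-sided, gave a P of 0.000488, the smallest that 12 pairs allow. The second Igj probe gave 2.72 (SE 0.35, adjusted P 2.89e-07 in limma), also in 12 of 12 mice. That probe was well above background on 12 of 12 colons but on 4 of 12 livers, and its lowest colon, at -2.60, was below its highest liver, at -2.08. Both probes gave the same direction, and the size from the second is uncertain because 8 of 12 livers were not well above background.

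Pigr, the epithelial carrier of the antibody, was measured in both tissues. Its probe lies at chr1:130755546-130755605 on the plus strand of build mm7 and was well above background on 24 of 24 arrays. Colons ranged from -0.60 to 0.28 (median 0.04) on HF-low-low and from -0.03 to 0.76 (median 0.34) on HF-low-suf. Livers ranged from -1.49 to -0.25 (median -0.54) on HF-low-low and from -0.88 to -0.34 (median -0.66) on HF-low-suf. Colons were mostly the higher tissue, but the ranges met: the lowest colon, HF-low-low replicate 4, was below several livers. The difference was 0.81 (SE 0.14, 1.75-fold, adjusted P 1.79e-05 in limma), with the colon higher in 11 of 12 mice (exact permutation P 0.000977, two-sided). All but HF-low-low replicate 4 had the higher value in the colon. It was 1.12 among the mice scanned on the first day and 0.50 among those scanned on the second, so that the first passed the limit of 1 and the second did not.

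Tnfrsf17, the survival receptor of plasma cells, was near the floor of the arrays. Its probe, which the array places on an unplaced stretch of chromosome 16 (16_random, 436643 to 436702, minus strand, build mm7), was well above background on 2 of 12 colons and 0 of 12 livers. Colons ranged from -1.33 to 0.58 and livers from -1.32 to -0.07, so that the tissues overlapped, with 4 of 12 colons above every liver. The difference was 0.34 (SE 0.20, adjusted P 0.237 in limma, 95% interval -0.08 to 0.75), with the colon higher in 8 of 12 mice. Because the probe was not well above background in liver, a lower bound for the fold was computed from the dimmest measured signal, and it came to less than 1.

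The upstream sequences of the 2 members that were higher in the colon are shown, with the transcription start just after the last base, from RefSeq in build GRCm38.p6. Capitals mark the motifs found among 6 searched on both strands. These were the octamer ATGCAAAT of B cell genes, an E-box with the letters CACGTG, another E-box with CAGGTG, the ETS core GAGGAA, the interferon-stimulated response element and CCCNNGGG, the palindrome of early B cell factor. Jchain (Igj) covers chr5:88527898-88528147 on the minus strand and Pigr chr1:130826434-130826683 on the plus strand.
Igj: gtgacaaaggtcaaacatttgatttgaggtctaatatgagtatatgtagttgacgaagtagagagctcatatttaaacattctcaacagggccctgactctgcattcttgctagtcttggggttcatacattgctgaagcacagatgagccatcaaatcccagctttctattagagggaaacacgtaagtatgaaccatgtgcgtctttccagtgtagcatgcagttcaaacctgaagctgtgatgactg
Pigr: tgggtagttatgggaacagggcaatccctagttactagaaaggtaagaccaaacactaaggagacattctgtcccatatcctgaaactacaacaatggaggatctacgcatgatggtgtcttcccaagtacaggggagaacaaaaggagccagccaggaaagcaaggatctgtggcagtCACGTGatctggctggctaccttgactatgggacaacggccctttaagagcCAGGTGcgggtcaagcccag
In these 250 bases, Igj held 0 of the 6 motifs. Pigr held CACGTG, starting 71 bases before the start and found upstream of 6.02% of the 32851 starts in the table, and CAGGTG, starting 20 bases before it and found upstream of 17.2%. Of the other members in the table, Cd79a held CAGGTG and the ETS core (23.3% of starts), and Tnfrsf17 held the ETS core and the interferon-stimulated response element (2.98% of starts). The octamer, present upstream of 1.6% of starts, and CCCNNGGG, present upstream of 11.8%, were in none of these 4 windows. Cd79b and Ms4a1 were not analysed for motifs.

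Cd79b, the beta chain of the B cell receptor complex, went the other way from Igj. Its probe lies at chr11:106420507-106420566 on the minus strand of build mm7 and was well above background on 10 of 12 colons and 11 of 12 livers. Colons ranged from -1.44 to -0.49 (median -0.68) on HF-low-low and from -1.79 to 0.08 (median -0.72) on HF-low-suf. Livers ranged from -0.89 to 0.31 (median -0.11) on HF-low-low and from -0.63 to 0.78 (median 0.02) on HF-low-suf. Colons lay lower than livers on the whole, but the highest colon, at 0.08, was above most livers and the lowest liver, at -0.89, below most colons.

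Cd79b was lower in the colon by -0.76 (SE 0.20, 1.69-fold, adjusted P 0.00346 in limma). The colon was higher in 1 of 12 mice, HF-low-low replicate 4, and by exact permutation the two-sided P was 0.000977. Within the 2 scan days the difference was -0.87 and -0.64. With arrays centred on their medians in place of loess it was -0.36 (adjusted P 0.175 in limma) and no longer passed the adjusted P.

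Ms4a1, the surface protein CD20 of B cells, also had lower values in the colon, but at signals near background. Its main probe, at chr19:10931002-10931061 on the minus strand of build mm7, was well above background on 2 of 12 colons and 6 of 12 livers. Colons ranged from -2.80 to -0.80 (median -1.48) on HF-low-low and from -2.10 to -0.35 (median -1.06) on HF-low-suf, and livers from -1.13 to -0.22 (median -0.63) and from -0.90 to 0.42 (median -0.15). The tissues overlapped, with the highest colon at -0.35. The difference was -0.98 (SE 0.22, adjusted P 0.00069 in limma), and the colon was higher in 0 of 12 mice (exact permutation P 0.000488, two-sided). This is just short of the limit of 1, and its size is uncertain because 10 of 12 colons were not well above background. It was -0.60 with median centring (adjusted P 0.0277 in limma) and -0.85 within scan day 1 (adjusted P 0.0565 in limma). It passed, at up to -1.06, when any 1 of HF-low-low replicates 1, 2, 4 and 5 or HF-low-suf replicates 1 and 3 was left out, and was -0.84 without HF-low-low replicate 3.

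The second Ms4a1 probe, at chr19:10931462-10931521, differed less between the tissues. The first 30 bases of both Ms4a1 probes are shown because their results part.
Ms4a1 main probe: gctgtgctttgagattctttccaaatggca
Ms4a1 second probe: taatggtttttccgcatttcctccatcagc
The second probe was well above background on 2 of 12 colons and 1 of 12 livers and gave -0.37 (SE 0.17, adjusted P 0.1003 in limma), with the colon higher in 3 of 12 mice. Both probes had the same sign, and only the first passed the adjusted P.

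Cd79a, the alpha chain of the receptor complex, was not measured well enough to compare. Its 60-base probe on the plus strand of chromosome 7 spans 258 bases of build mm7 (chr7:21688822-21689079), which places an intron inside it, and the whole probe is shown because it reads across that junction.
Cd79a probe: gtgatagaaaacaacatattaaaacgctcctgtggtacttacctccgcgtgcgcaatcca
It was well above background on 1 of 12 colons and 1 of 12 livers, and these were the brightest array of each tissue, colon HF-low-suf replicate 5 and liver HF-low-suf replicate 4. The values ranged from -0.92 to 0.58 in colons and from -0.47 to 0.69 in livers. The difference was -0.05 (SE 0.14, 95% interval -0.34 to 0.25, adjusted P 0.862 in limma), and the colon was higher in 6 of 12 mice.

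**Figure D2:**
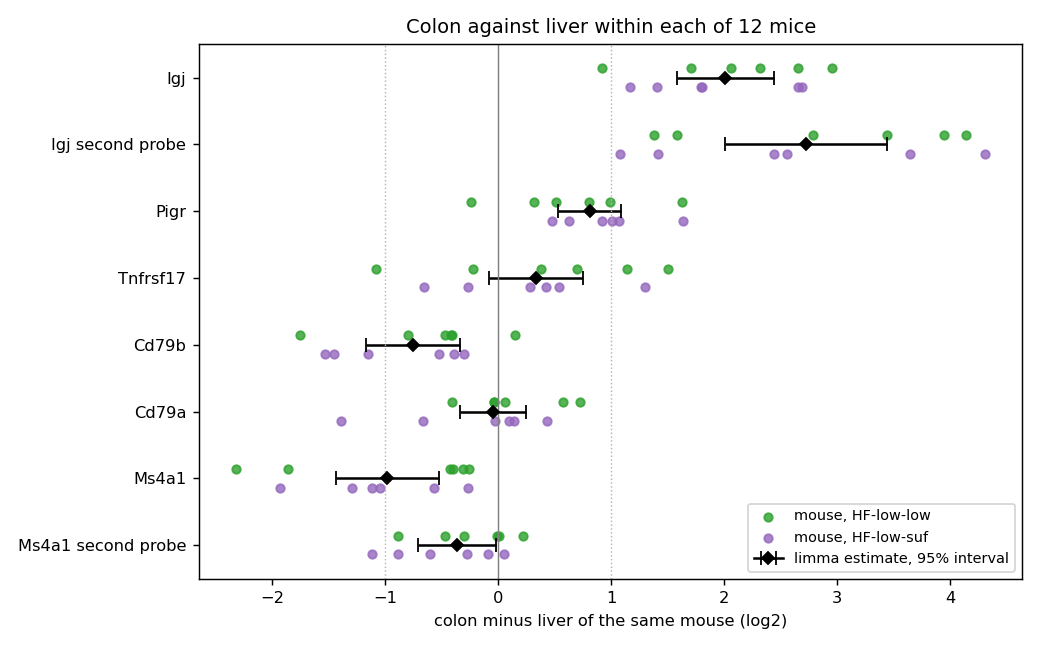
Colon minus liver (horizontal axis, log2) for each member probe, with 1 point for each of the 12 mice by diet, and diamonds with bars for the limma estimate and its 95% interval; dotted lines mark a difference of 1. All 12 mice are to the right of 0 for both Igj probes and to the left for the main Ms4a1 probe.

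Immunoglobulin heavy and light chain probes were set beside the members, none of them named for the alpha chain of IgA. Of 43 probes with an immunoglobulin heavy or light chain name, 17 were called higher in the colon and 0 higher in the liver, beside 6.7% of all probes called higher in the colon, and their median difference was 0.65. On at least 6 of the 12 arrays of a tissue, 30 were measured above background in colons and 8 in livers. The 3 brightest probes, all of Igh-VJ558, named for a heavy chain variable family, were higher in the colon by 3.40 (SE 0.31), 2.67 (SE 0.32) and 3.89 (SE 0.35), and the brightest of Igl-V1, a lambda light chain, by 2.70 (SE 0.35). The brightest probe of Igh-6, the mu heavy chain of IgM, had a difference of -0.33 (SE 0.17, adjusted P 0.152 in limma) and was not called. Several of these probes share source transcripts or match related gene segments, so that they are not separate measurements of separate genes.

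The other lists hold genes of the same cells or of neighbours in the tissue, and their counts stand beside 6.7% of all probes called higher in the colon and 5.96% higher in the liver. Of 13 plasma cell genes measured, 1 was called higher in the colon, Glcci1 (1.07), and 1 higher in the liver, Sdc1 (-1.19), which hepatocytes also express. Xbp1, the transcription factor of secretory plasma cells and of other secretory cells, had a difference of -0.25 (SE 0.17, not called). The endoplasmic reticulum gene Creld2 (-0.62) and the elongation factor Ell2 (-0.69) were also short of the limit of 1. Of 21 B cell genes, 2 were called, Blnk (4.14), an adaptor of B cell receptor signalling, and Cd38 (2.12), a surface enzyme, both higher in the colon. The other 19, among them Syk (0.49) and Lyn (-0.59), were not, and the median of the list was -0.05. That median rests mostly on dim genes, since 6 of the 21 were well above background on at least 6 of 12 colons and 5 on at least 6 livers. Because the 6 seen in colons were picked by detection there, their mean is not compared between the tissues. Of them, Blnk, Cd38, Syk and Spib (0.82) had higher values in the colon, and Lyn and Cd72 (-0.40) lower ones. Spib was well above background on 12 colons and 0 livers. Of 16 survival and class switch factors, Tnfsf13 (APRIL, a ligand of the receptor that Tnfrsf17 encodes) was higher in the colon by 1.19 (SE 0.10) and the TGF beta receptor gene Tgfbr2 by 1.09 (SE 0.15), while Aldh1a1, a retinoic acid enzyme, was higher in the liver (-1.51, SE 0.11). Aldh1a2, another such enzyme, had a difference of 0.85 (SE 0.22) and was not called. Of 17 homing genes, Ccl25, a chemokine of gut and thymus, was higher in the colon by 2.31 and Ccl19, a chemokine of lymphoid tissue, higher in the liver (-1.57). Ltbr (-0.37) and Ltb (0.27), a receptor and a ligand of lymphoid tissue formation, were not called.

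Markers of other cells in the samples moved with tissue too, and their part in the members' differences was not tested. All 10 colon epithelium genes and all 7 smooth muscle genes were called higher in the colon, with medians of 4.29 and 3.04, and all 7 hepatocyte genes higher in the liver, with a median of -5.20. Of 12 macrophage genes 5 were called higher in the liver, including the Kupffer cell gene Clec4f, and 0 higher in the colon. Of the T cell genes 0 were called higher in the colon, and the T cell receptor signalling genes Zap70 (-2.74) and Cd3e (-1.49) were called higher in the liver.

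**Figure D3:**
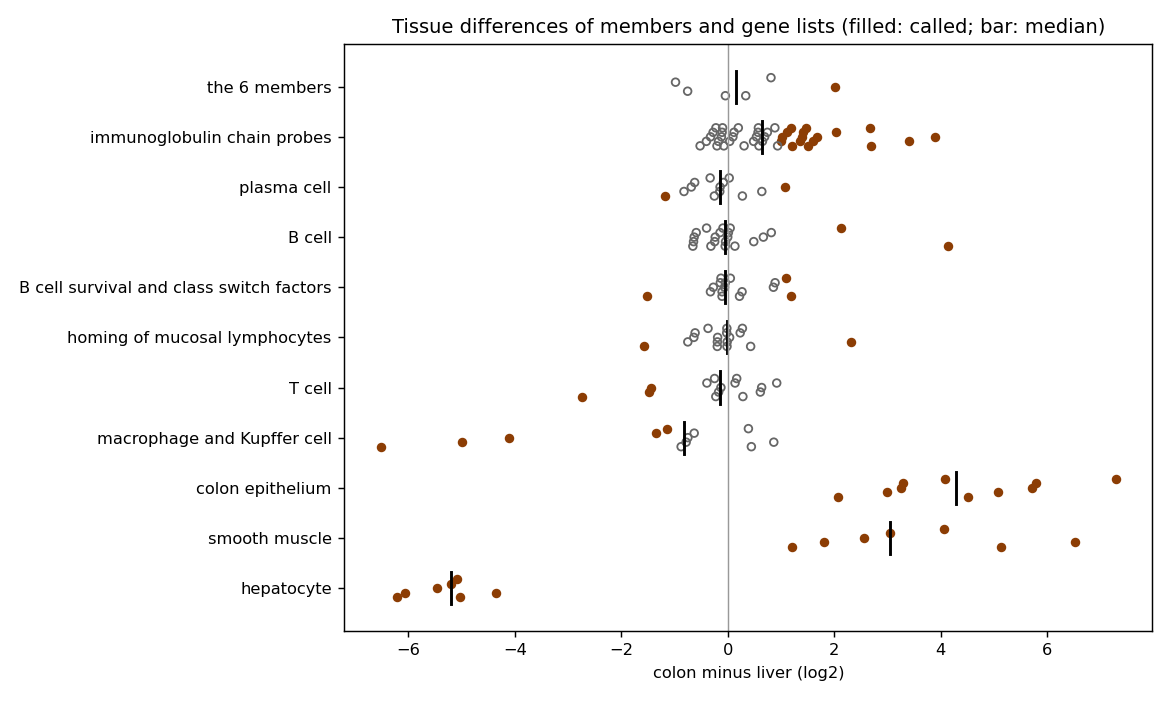
Colon minus liver (horizontal axis, log2) for the 6 members by their main probes and for the genes of each list, with filled points for called genes, open points for the others and a bar at the median. Immunoglobulin probes run up to 3.89, while the plasma cell and B cell lists have medians of -0.15 and -0.05, with dim genes included (6 of 21 B cell genes were measured on at least 6 colons).

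Colons differed from one another as well. Igj spanned 2.17 on the log2 scale over the 12 colons, a 4.49-fold range, against 0.94 over the 12 livers. Over the 12 colons, the 5 genes with the pattern most like Igj, by Pearson's r among 15563 probes well above background on at least 10 colons, were Igh-VJ558 (0.96), a kappa light chain transcript named AF152371 (0.95), Ighg (0.95), Vcam1 (0.95) and LOC674005, similar to a kappa chain (0.95). Of these, 4 are immunoglobulin chains, and Vcam1 is an adhesion molecule of endothelium and stroma that lymphocytes bind. Among the 25 most alike gene names, each by its most alike probe, 14 were named or described as immunoglobulin. Over the 30 immunoglobulin probes measured in the colon, r with Igj ranged from 0.55 to 0.96 with a median of 0.87. For Pigr the same 30 probes had a median r of 0.30, and for Cd79b 0.67. These values describe the 12 arrays, which share the same libraries for both genes of a pair.

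The plasma cell genes were not all like Igj across colons. Of the 10 plasma cell genes measured in the colon, Pou2af1, a B cell coactivator, had an r of 0.91 with Igj and Mzb1, a chaperone of antibody assembly, 0.89, both named after their values were seen. The other 8 lay between -0.22 and 0.65, among them Xbp1 at 0.52 and Sdc1 at -0.22.

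Macrophage genes moved with Igj among the colons. The mean of the 8 macrophage genes measured there fell into separate clusters, between -0.72 and -0.30 on 5 colons (HF-low-low replicates 3 and 5, and HF-low-suf replicates 2, 5 and 6) and between 0.49 and 0.80 on the other 7. These 5 colons, of both diets, also had the 5 lowest Igj values, 4 of the 5 lowest Cd79b values and 2 of the 5 lowest Pigr values. The same 5 colons also had the lowest immunoglobulin means, from -1.47 to -0.52 against 0.09 to 1.08 on the other 7. Singly, the 8 macrophage genes had an r with Igj from 0.60 to 0.89 over the 12 colons, with a median of 0.82, beside 0.87 for the immunoglobulin probes, and the means of both lists part the same 5 colons from the 7. Because of the clusters no pooled test is given. Within the 7 colons, over their narrow range of macrophage means, the relation to Igj was weak (r of -0.11 with an exact permutation P of 0.790, rho of -0.18 with an exact permutation P of 0.713, and r of -0.19 without the 2 farthest colons), and the other 5 are too few for a correlation. The means of colon epithelium and smooth muscle genes ranged from 0.38 to 0.88 and from 0.37 to 1.19 over the 12 colons. Singly, the epithelium genes had an r with Igj from -0.88 (Slc26a3) to 0.64 (Vil1), with a median of 0.07. For the smooth muscle genes r with Igj ran from -0.58 to 0.56, with a median of 0.10. The part of macrophage or other cell content in the members' levels was not tested.

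**Figure D4:**
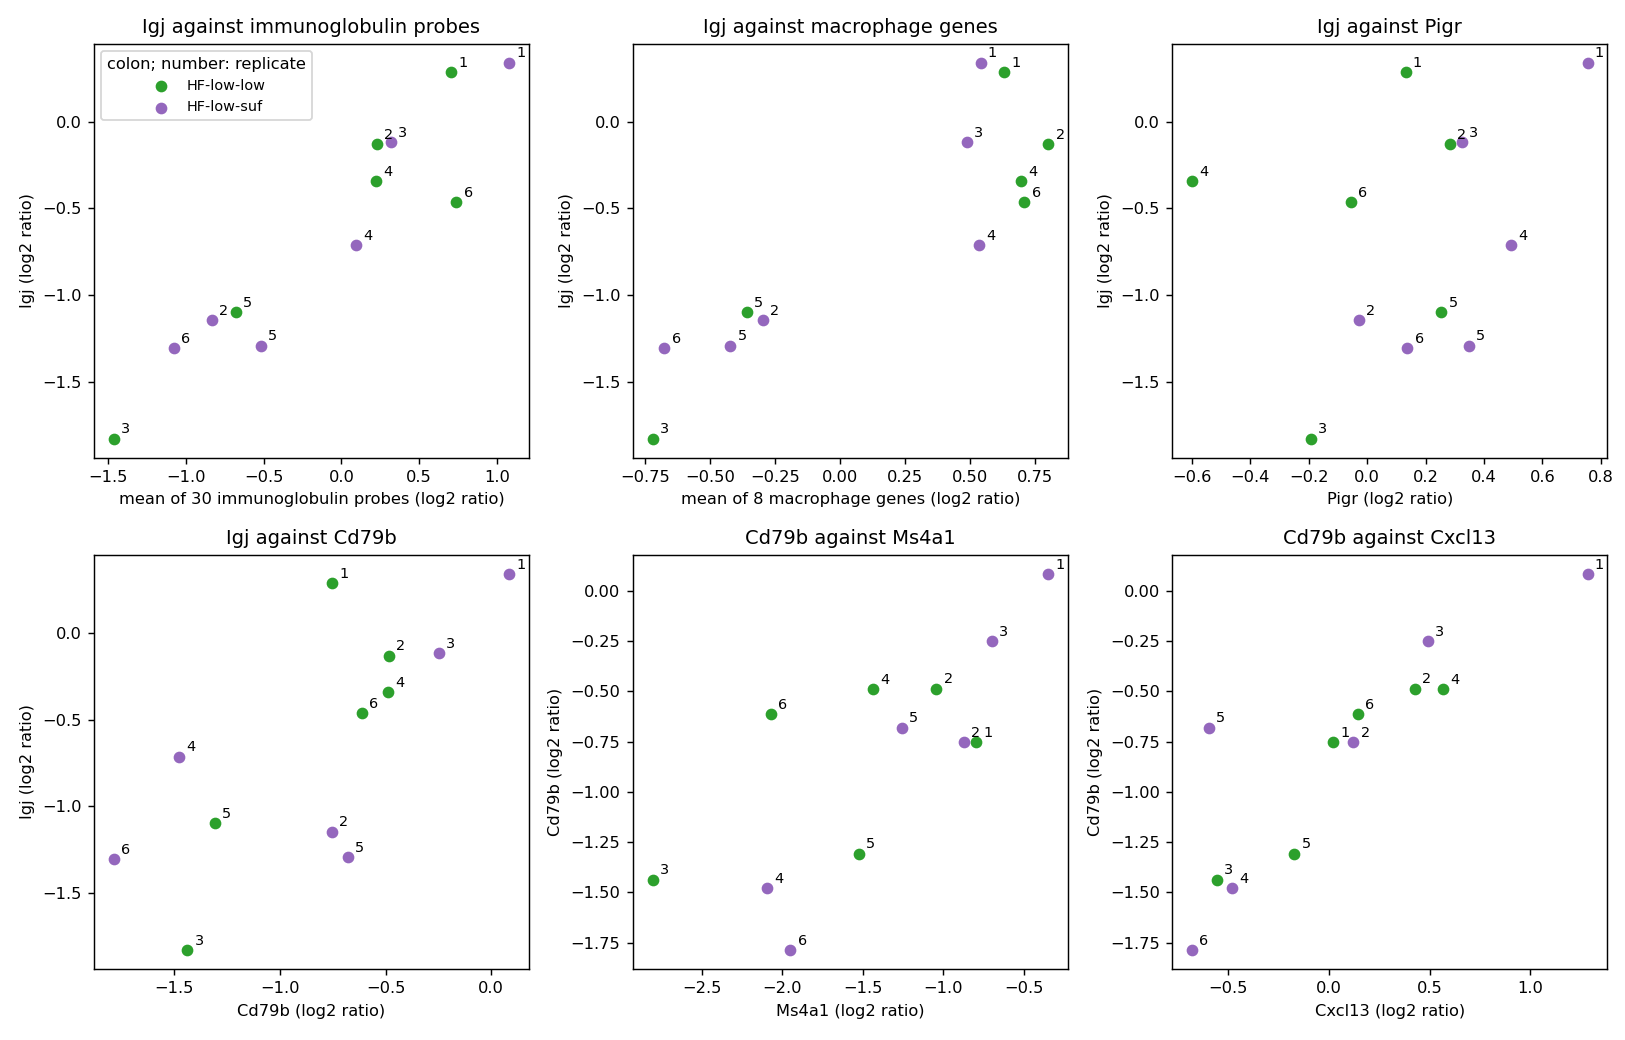
Log2 ratios over the 12 colons, numbered by replicate and coloured by diet: Igj against the mean of 30 immunoglobulin probes, the mean of 8 macrophage genes, Pigr and Cd79b, and Cd79b against Ms4a1 and the chemokine Cxcl13. Igj climbs with the immunoglobulin mean, the macrophage means fall into 2 clusters, and Igj and Pigr have an r of 0.30.

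Relations between members were computed for all 15 pairs over the 12 colons, with permutation P adjusted over the 15. Igj and Cd79b had an r of 0.73 (permutation P 0.00846, adjusted 0.0491) and a rho of 0.76 (adjusted permutation P 0.0648). Igj and Ms4a1 had an r of 0.70, Igj and Tnfrsf17 0.69, and Cd79b and Ms4a1 0.76, each with an adjusted permutation P of 0.0491 for r. Adjusted P for rho was above 0.05 in all 15 pairs.

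Each of these r was lower without the 2 colons farthest from the median, where P was not adjusted. Cd79b and Ms4a1 had an r of 0.70 (permutation P 0.0232). The r of Igj with Cd79b became 0.58, with Tnfrsf17 0.61 and with Ms4a1 0.41, each with a permutation P above 0.05. Fewer colons also raise a P, so the P alone does not show how far a relation rests on the 2 left out. The fall in r was largest for Igj with Ms4a1. Within the 6 colons of each scan day, r was 0.82 and 0.56 for Igj with Cd79b, 0.89 and 0.47 for Cd79b with Ms4a1, 0.74 and 0.94 for Igj with Tnfrsf17, and 0.84 and -0.25 for Igj with Ms4a1. Igj and Pigr had an r of 0.30 (permutation P 0.355), which was 0.81 on the first scan day and -0.64 on the second. Tnfrsf17 and Ms4a1 were well above background on 2 of 12 colons each, so their part in these pairs rests on dim signals.

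For Cd79b the 5 most alike genes over the colons were others than for Igj, namely Ly6d (0.91), a surface marker of early B cells and of some epithelia, Cdca1 (0.89), Mybl2 (0.87), Cxcl13 (0.87) and Tpx2 (0.86). Cxcl13 is the chemokine that draws B cells into lymphoid follicles, and Cdca1, Mybl2 and Tpx2 serve cell division. The patterns were not separate beyond these 5. Cxcl13 also had an r of 0.79 with Igj, and Igh-6 (0.85) and Mzb1 (0.83) were among the 25 most like Cd79b. For Pigr the 5 were Dnajc3 (0.96), an endoplasmic reticulum cochaperone, Ccar1 (0.93), D930015E06Rik (0.92), Ankfy1 (0.92) and Ctbp1 (0.90), with 0 immunoglobulin genes among its 25 most alike. Levels of the same member in the colon and liver of a mouse were also compared, for 6 members, with r between -0.17 and 0.37 and an adjusted permutation P of 0.647 for each r.

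Whether the post-weaning diet moved these genes in the colon was tested on the 12 colon arrays with limma, HF-low-suf against HF-low-low, at an unadjusted P under 0.01 and a fold above 1.5. Differences are HF-low-suf minus HF-low-low, from the dyes as labelled, a sign opposite to that of most colon fold changes in the paper. The paper defines its sign in the same way, with positive values for genes raised by supplementation. The cause of the mismatch was not tested. Read in the paper's direction, each colon diet difference below, and each count by direction, would turn. Of the 6 members, 0 were called, beside 0.168% of all probes (0.16% higher on HF-low-suf), and 0 had an adjusted P under 0.05, beside 0 of 41174 probes in limma. At an unadjusted P under 0.05 there were 0 of 6 members in the colon, beside 2.98% of all probes. The median of the 6 differences was -0.04, with 3 of 6 above 0.

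Pigr came nearest among the members that were well measured. Its mean was -0.03 ± 0.33 (SD, n = 6) on HF-low-low and 0.34 ± 0.27 (SD, n = 6) on HF-low-suf. The HF-low-suf colons lay higher on the whole but overlapped with the others. The difference was 0.37 (SE 0.18, 95% interval -0.0028 to 0.74), for which limma gave a P of 0.0516 (adjusted 0.9999) and exact permutation a two-sided P of 0.0563. In the liver the Pigr difference was 0.08 (SE 0.20). The difference between the tissues' diet effects was 0.29 (SE 0.26, P 0.267 in limma).

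Igj showed no diet difference larger than the spread between mice. Its mean was -0.60 ± 0.75 (SD, n = 6) on HF-low-low and -0.71 ± 0.68 (SD, n = 6) on HF-low-suf, a difference of -0.11 (SE 0.35, P 0.756 in limma). The 95% interval, -0.84 to 0.62, includes changes of more than 1.5-fold either way. Leaving out single mice moved it from -0.36 (without HF-low-low replicate 3, the lowest colon) to 0.07 (without HF-low-low replicate 1). Cd79b differed by 0.04 (SE 0.29, 95% interval -0.57 to 0.65), and by -0.14 without HF-low-suf replicate 1 to 0.23 without HF-low-suf replicate 6.

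For the dim members the differences rest on signals near background. Cd79a differed by -0.40 (SE 0.20, P 0.0633 in limma, exact permutation P 0.0584), with 1 of 12 colons well above background, and by -0.21 without HF-low-suf replicate 3. Ms4a1 differed by 0.41 (SE 0.34, P 0.250 in limma) by its main probe, or 0.17 without HF-low-low replicate 3, and by 0.05 (SE 0.24) by its second. Tnfrsf17 differed by -0.14 (SE 0.28), and by -0.36 without HF-low-low replicate 3 to 0.02 without HF-low-low replicate 4. In the liver 0 of 6 members were called by the same rule, beside 0.117% of all probes, and 0 of 41174 probes passed the adjusted P in limma. There the main Ms4a1 probe differed by 0.52 (SE 0.23, P 0.0388 in limma, exact permutation P 0.0649), and the other members had a P above 0.05, a limit that 2.13% of all probes passed. The test of the difference between the tissues' diet effects gave 0 members a P under 0.05, beside 6.43% of all probes.

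**Figure D5:**
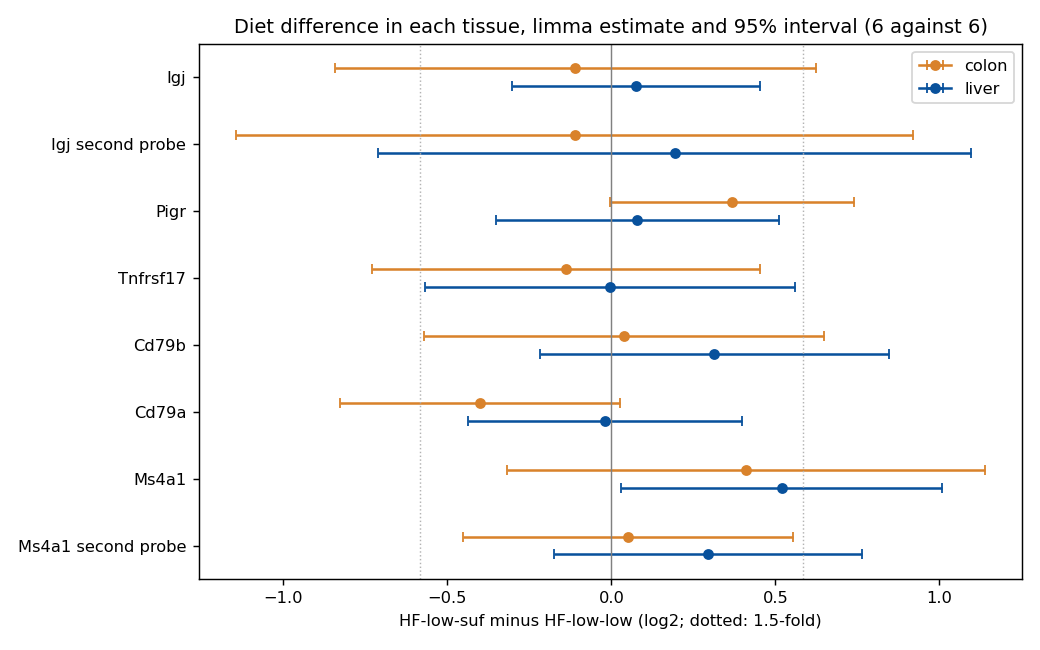
Difference between diets, HF-low-suf minus HF-low-low (horizontal axis, log2), for each member probe in colon and liver, as the limma estimate with its 95% interval from 6 against 6 mice; dotted lines mark 1.5-fold. Every interval but that of the main Ms4a1 probe in the liver includes 0.

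The lists beside the members gave the same count. Of the 43 immunoglobulin probes 0 were called for diet in the colon and 12 of 43 were higher on HF-low-suf. In each of the lists of plasma cell, B cell, survival factor and homing genes, 0 genes were called and 0 had a P under 0.05, beside 2.98% of all probes. Of 14 T cell genes 0 were called and 1 had a P under 0.05. That was Cd247 (0.50, P 0.0137 in limma), well above background on 0 colons. The mean of the 30 measured immunoglobulin probes ranged from -1.47 to 0.74 (median 0.23) over the colons on HF-low-low and from -1.08 to 1.08 (median -0.21) on HF-low-suf, so the diets overlapped almost fully.

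Signal in Cy3 stood at 3.78 to 7.20 times background (medians of an array), and 26.1% to 71.9% of spots were well above it. Colon HF-low-suf replicate 5 and liver HF-low-suf replicate 4 were the brightest of their tissues, and without both Igj differed between the tissues by 2.08 and Cd79b by -0.78. Precision is limited by there being 6 mice on each diet.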

How the data were processed

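Gene expression in colon and liver of 12 mice was measured on 24 two-colour Agilent arrays, grouped by tissue and diet from the labels. Mice are separate animals. Each of 6 slides carried 1 array of each group, and 3 slides were scanned on each of 2 days. Per the file headers, Feature Extraction 9.5.3.1 quantified the spots. The authors deposited, for each spot, the mean signal intensity and the median local background intensity in Cy3 and Cy5, not normalized, and an intensity processed by that software, used as an alternative. The study's methods name global loess and limma, and state no background correction. The sheet of array targets was not used.

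In limma 3.58.1 on R 4.3.3, mean intensities underwent normexp background correction with an offset of 50, then loess normalization array by array. Of 45018 spots, 1639 controls and any spot with an outlier flag were dropped, and a probe's remaining spots averaged, which gave 41174 probes. Being well above background is Feature Extraction's own mark in Cy3, and a probe with several spots needed it on as many spots as lacked it, or more. Colon and liver were compared over all 24 arrays without a block, and diets within each tissue (lmFit, eBayes). For the difference of diet effects, duplicateCorrelation (statmod 1.5.0) took each mouse as a block. Exact permutation tests, two-sided, used 924 assignments of mice to diets (smallest P 0.00216) or 4096 signs (smallest P 0.000488). Correlations used 100000 resamples. Colon and liver with one mouse number in the labels are one animal, and their deviations from group means correlated at -0.03 to 0.28, over 0.1 in 8 of 12 mice.

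The members, lists, named genes and tests were chosen with earlier results of these data known. Named were the members, up to 4 brightest genes of each list and of the immunoglobulin probes, any called in the colon diet comparison, and the 5 genes most like each member measured on at least 6 colons. Other called genes of a list were named after their values were seen. Of 8 member probes, 7 matched a RefSeq accession in a table of current names (GRCm38.p6). Positions of probes come from the array files, which use mm7.

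In data simulated for colon against liver, 200 of 200 probes changed by a log2 step of 2 were called, with 2 others, of 41174. For the colon diet comparison 99% were called at a step of 2 and 91% at a step of 1, with 216 and 198 others. The changed probes were drawn from all probes, with independent simulated noise. These shares are therefore not those of single members, such as Igj with its SE of 0.35 for diet in the colon. Alternatives were other background corrections, scalings, filters, blocks, scan days and leaving out each mouse. Added after seeing the data were the 22 arrays other than the 2 brightest, and the adjusted P alone. A value that was not called counted as reversed where it changed sign and by more than the standard error.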

Additional observations from a re-analysis of the deposited data

How the results depend on the processing

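The number of probes called between colon and liver was 5210, and 8654 from the processed signals of Feature Extraction, 8815 from the Cy3 channel alone and 14780 by the adjusted P alone. The members called between colon and liver were 1 (Igj). They were 3 from the processed signals (with Cd79b at -1.03 and Ms4a1 at -1.24) and from Cy3 alone (Cd79b -1.19, Ms4a1 -1.36), 2 with median centring (Pigr 1.13), 2 within scan day 1 (Pigr 1.12) and 2 within scan day 2 (Ms4a1 -1.12), and 4 by the adjusted P alone. With median centring Cd79b was -0.36 and Ms4a1 -0.60. The cause was not tested. Leaving out single mice, 1 to 2 members and 5142 to 5401 probes were called. Igj kept a difference between 1.91 and 2.72 over the settings run. Cd79a between the tissues became 0.14 from the processed signals. The 2 brightest arrays left out gave 5436 probes and 1 member.

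For diet in the colon, 69 probes were called, 13 without background correction, 26 with median centring, 3 among probes well above background on at least 6 arrays, 113 with scan day as a term, 278 within scan day 1, and 23 to 257 leaving out single mice (23 without HF-low-low replicate 1, 257 without HF-low-low replicate 5). In every setting 0 members were called. Signs turned for Cd79a (0.26 from Cy3 alone), for Igj (0.25, second probe 0.39) and Tnfrsf17 (0.40) within scan day 1, and for Cd79b (-0.51) and Ms4a1 (-0.0891) within scan day 2.

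With the mouse as a replicate block, 5213 probes (random block) or 5214 (fixed) and 1 member were called between the tissues, with Igj at 2.01, Pigr at 0.81, Cd79b at -0.76 and Ms4a1 at -0.98, and no member's call changed. Replicate numbers of the diets share only a slide: deviations of colons on one slide correlated at -0.09 to 0.24, over 0.1 in 3 of 6 pairs, and 5 of 12 colons matched their own slide best. With the slide as a block 92 probes and 0 members were called for diet in the colon. Signals near background limit Cd79a, Tnfrsf17 and Ms4a1.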
